A study of Mus musculus with 3 samples.

Results

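Genes of milk protein synthesis and prolactin signalling were read in EpH4-PR cells, which are mammary epithelial cells of the mouse. The members were the caseins Csn1s1, Csn2 and Csn3, the whey proteins Wap, Lalba and Ltf, the enzyme Xdh, the receptor Prlr and the transcription factors Stat5a and Stat5b. Every non-control probe named for one of them was taken, and old casein names were matched by RefSeq accession. This gave 15 probes of 10 genes, among 41174 probes of 30338 gene names on the array. Csn3, Wap, Ltf, Xdh and Stat5b had 2 probes each, and the other members had 1.

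RNA was hybridised to 3 two-colour Agilent whole mouse genome arrays on separate slides. Cy5 carried the EpH4-PR RNA throughout, and Cy3 carried the Stratagene mouse standard, a commercial reference RNA. There was no dye swap, so a dye effect of a probe and a difference between both RNAs cannot be told apart. The line derives from EpH4 cells by stable transfection with the A form of the progesterone receptor (PR-A) and selection of clones. EpH4-PR cells had received DMEM with 10% FBS and were about 75% confluent. No prolactin or other lactogenic hormone is listed as added, and the hormone content of the serum is not stated. Vector control cells (EpH4-EV) were not analysed here, so every ratio sets EpH4-PR RNA against reference RNA and does not measure an effect of PR-A. The labels number the 3 arrays as replicates without saying that they came from separate cultures, so p-values measure only the spread between these arrays, which may be technical.

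In the mammary gland, prolactin binds its receptor Prlr, which activates the associated kinase Jak2. Jak2 phosphorylates Stat5a and Stat5b, which pair, enter the nucleus and bind the palindrome TTCNNNGAA in front of milk protein genes. Caseins carry calcium and phosphate in micelles, Wap and Lalba are whey proteins, and milk protein genes are known for their high expression in the lactating gland. Cultured mammary cells usually need prolactin, glucocorticoid and contact with a matrix to express them strongly.

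The 250 bases upstream of the annotated starts (RefSeq, GRCm38.p6) were searched for this palindrome on both strands, because the members stand on both sides of it, as Stat5 genes and as textbook Stat5 targets. Windows were given for 8 of the 10 member genes, 12 windows in all. Across all 32851 promoter windows, 7.02% held TTCNNNGAA. Among the members, 3 of 12 windows held it, each once, and these were the windows of Csn1s1, of Csn2 and 1 of the 3 of Prlr. The match lay 100 bases before the start in Csn1s1 (chr5:87665958-87666207, plus strand), 93 bases before it in Csn2 (chr5:87699426-87699675, minus strand) and 110 bases before it in Prlr (chr15:10223656-10223905, plus strand). TGTTCT, the core of progesterone and glucocorticoid receptor sites, was found on either strand in 16.1% of all windows and in 1 member window, that same Prlr window, 12 bases before the start. A match is a run of letters and was not tested as a binding site. The windows with the palindrome are shown 5′ to 3′ on the strand of the gene, with the palindrome in capitals.
Csn1s1: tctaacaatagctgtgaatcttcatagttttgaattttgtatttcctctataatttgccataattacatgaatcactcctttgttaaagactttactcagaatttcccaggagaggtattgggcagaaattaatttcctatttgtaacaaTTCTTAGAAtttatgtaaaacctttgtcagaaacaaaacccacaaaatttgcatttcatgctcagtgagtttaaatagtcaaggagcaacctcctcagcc
Csn2: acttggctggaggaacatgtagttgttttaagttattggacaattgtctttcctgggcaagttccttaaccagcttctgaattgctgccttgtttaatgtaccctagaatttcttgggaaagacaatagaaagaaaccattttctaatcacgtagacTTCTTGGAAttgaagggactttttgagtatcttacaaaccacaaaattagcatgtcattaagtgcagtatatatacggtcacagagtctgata
Prlr: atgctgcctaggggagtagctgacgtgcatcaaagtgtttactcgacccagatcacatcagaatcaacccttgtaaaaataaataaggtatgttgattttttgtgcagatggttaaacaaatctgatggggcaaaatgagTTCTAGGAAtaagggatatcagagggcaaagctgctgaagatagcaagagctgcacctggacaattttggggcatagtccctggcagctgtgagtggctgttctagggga

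Before the members, the arrays were checked against their labels. Log2 ratios of all probes correlated between arrays with a Pearson r of 0.923 to 0.952 (computed across probes, which are no independent replicates). The 314 negative control spots, which match no mouse transcript, had a median signal of 57.3 to 74.1 in Cy5 and 91.8 to 121 in Cy3, above the local background of 42 to 43 and 39 to 43. Of the 11 probes for epithelial markers such as Cdh1 and Krt8, 10 were called higher in EpH4-PR RNA and 1, for Krt19, lower. Of the 16 for mesenchymal markers such as Vim and Col1a1, none was called higher and 9 lower; the split was 10 and 1, and 0 against 8 to 12, under 3 other ways of scaling. Pgr, the introduced gene, had 2 probes. Each was well above background in EpH4-PR RNA on 1 of 3 arrays, with log2 ratios of -0.11 and -0.19, and whether they match the introduced sequence was not tested. In bulk RNA, fewer cells expressing a gene and less RNA per cell cannot be told apart.

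The casein probes gave little signal in EpH4-PR cells. The Csn1s1 probe, for alpha-s1-casein, read 90.6, 85.8 and 67.2 in Cy5 on replicates 1, 2 and 3, or 1.16 to 1.25 times the median negative control of the same array. The Csn2 probe, for beta-casein, read 74.3, 84.3 and 61.2, or 1.02 to 1.14 times that median. Csn2 did not pass the 95th percentile of the negative controls on any array, and Csn1s1 passed it on 2 of 3. The scanner software flagged Csn1s1 as well above background on 2 arrays and Csn2 on 1. The flag can be met below the upper range of the negative controls. On replicate 2 it was given to Csn2 at 84.3, where their 95th percentile was 87.4. Both genes carry the Stat5 palindrome in the windows shown.

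Csn3, which encodes the kappa-casein that coats the micelle, was above the negative controls on every array with 1 of its 2 probes. Probe A_51_P227275 read 128, 146 and 111 in Cy5, or 1.77 to 1.97 times the median negative control, and was well above background on all 3 arrays. Probe A_51_P227280 read 71.0, 77.6 and 53.2, or 0.93 to 1.05 times that median, and was well above background on none. The probes of Csn3 therefore disagreed on whether its transcript was detected.

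**Figure D1:**
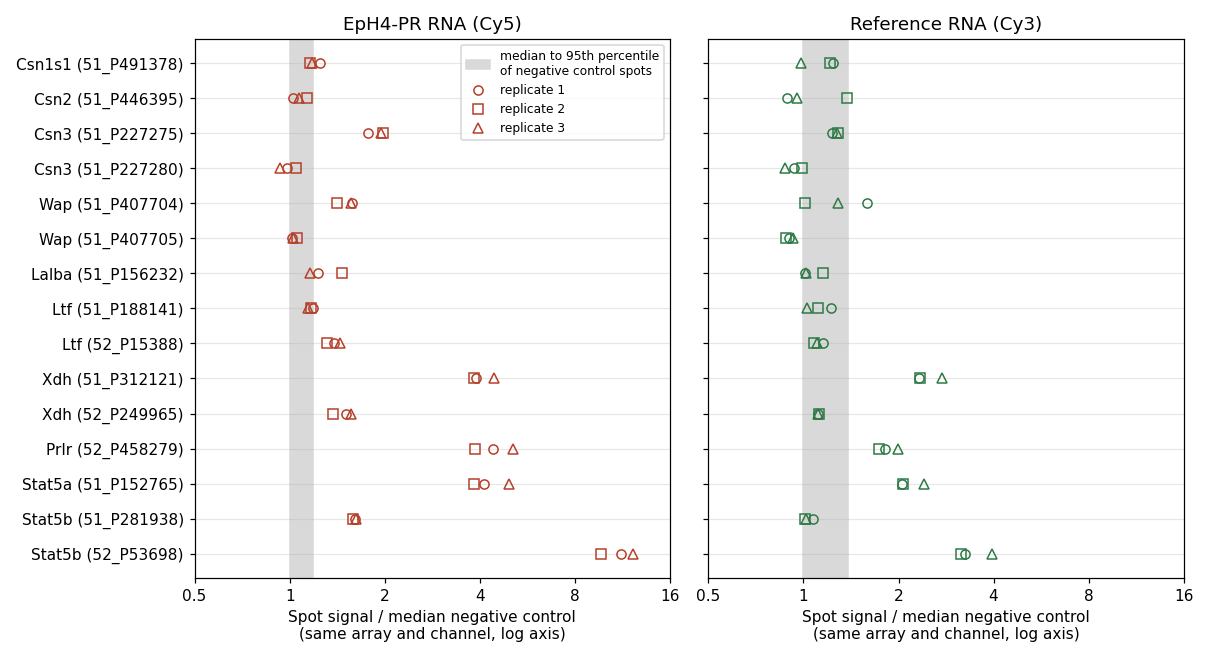
Spot signal of the 15 member probes on each of the 3 arrays, divided by the median of 314 negative control spots of the same array and channel (log axis), for EpH4-PR RNA in Cy5 and reference RNA in Cy3. Circles, squares and triangles are replicates 1, 2 and 3, and the grey band runs from the median to the 95th percentile of the negative controls, at its widest over the 3 arrays. In Cy5, 1 probe each of Xdh, Prlr, Stat5a and Stat5b lay at 3.83 or higher on every array, and the milk protein probes lay between 0.93 and 1.97.

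The whey protein probes also gave little signal. Wap, the whey acidic protein of mouse milk, was read by A_51_P407704 at 114, 105 and 89.3 in Cy5, or 1.41 to 1.57 times the median negative control, and by A_51_P407705 at 73.9, 77.9 and 58.4, or 1.02 to 1.05 times. The first probe was well above background on all 3 arrays and the second on none, as for Csn3. Lalba, alpha-lactalbumin, which directs galactosyltransferase to make lactose, read 89.0, 109 and 66.5, or 1.16 to 1.46 times the median. It was well above background in EpH4-PR RNA on 2 of 3 arrays. Ltf, the iron-binding lactoferrin, read 100, 97.3 and 82.7 with A_52_P15388, well above background on all 3 arrays, and 85.7, 86.6 and 65.6 with A_51_P188141, on none. Wap by A_51_P407704, Lalba and Ltf by A_52_P15388 passed the 95th percentile of the negative controls in Cy5 on all 3 arrays. Ltf by A_51_P188141 passed it on 1 array and Wap by A_51_P407705 on none.

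Against reference RNA, the casein and whey protein probes spanned log2 ratios of -0.29 to 0.07 after loess, and none of the 9 passed an adjusted p under 0.05 by limma. With median centring 6 of the 9 passed it, all below 0, where 40.9% of all probes passed below 0. These were Csn1s1 (-0.46), Csn2 (-0.44), Csn3 by A_51_P227280 (-0.32), Wap by A_51_P407705 (-0.14), Lalba (-0.14) and Ltf by A_51_P188141 (-0.45). Csn1s1 had ratios of -0.40, -0.52 and 0.06 (mean -0.29 ± 0.31, SD, n = 3). The array of replicate 3 lay on the other side of 0 from the other two, and without it the limma adjusted p was 0.00335 at a ratio of -0.46. Csn2 had ratios of 0.06, -0.89 and 0.03 (mean -0.27 ± 0.54, SD, n = 3). Its negative mean rested on replicate 2, without which it was 0.04. Wap by A_51_P407704 ranged from -0.82 to 0.32, the widest range of any member. Its mean of -0.28 became -0.02 without replicate 1 and -0.59 without replicate 2, where it passed the test (limma adjusted p = 0.0296). These spreads (SD 0.31 to 0.57) exceeded the median SD of 0.0853 over the 25727 probes whose signal was well above background in Cy5 and Cy3.

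The remaining milk protein probes varied less between arrays. The Csn3 probes had mean ratios of -0.07 ± 0.08 and -0.10 ± 0.04, Wap by A_51_P407705 had 0.07 ± 0.08 and Lalba had 0.03 ± 0.08 (SD, n = 3). Ltf by A_52_P15388 had 0.01 ± 0.08, and its values of -0.08, 0.02 and 0.08 lay on both sides of 0. Ltf by A_51_P188141 was well above background in reference RNA on all 3 arrays and in EpH4-PR RNA on none. The bound computed for it was 1.20-fold lower in EpH4-PR RNA. That bound used the probe's own measured Cy5 level, so it is the measured ratio and shows no least difference. This probe missed the threshold of the test (limma adjusted p = 0.0580). Its ratios were -0.46, -0.26 and -0.05 (mean -0.26 ± 0.21, SD, n = 3), below 0 on all 3 arrays. Without replicate 3 the mean was -0.36 and passed (limma adjusted p = 0.0122), without replicate 1 it was -0.16, and it also passed with median centring (-0.45), the scanner log ratio (-0.77) and an intensity trend (adjusted p of 0.0412). The bound sets the mean log2 level in Cy3 against that in Cy5, taken on each array as the probe's own or the lowest level well above background, whichever was higher. In Cy3, none of the casein and whey protein probes passed the 95th percentile of the negative controls on all 3 arrays, so most of these ratios compare signals close to the floor of both channels, and a ratio near 0 does not show equal levels. Median centring also turned the sign of Csn3 by A_51_P227275, Wap by A_51_P407705, Lalba and Ltf by A_52_P15388.

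**Figure D2:**
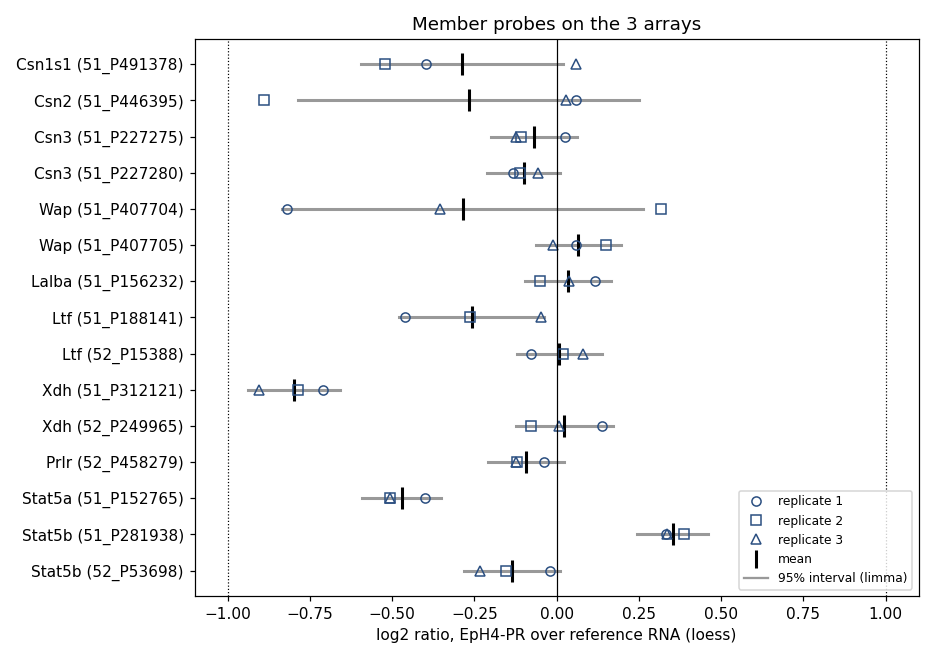
Log2 ratio of EpH4-PR RNA over reference RNA after loess for the 15 member probes. Symbols are the 3 arrays, the vertical tick is their mean and the grey bar is the 95% interval of limma; the dotted lines mark the log2 ratio of 1 either way that a call required. No mean reached a dotted line, and the means ran from -0.80 for Xdh by A_51_P312121 to 0.35 for Stat5b by A_51_P281938; median centring in place of loess turned the sign of Xdh by A_51_P312121, Prlr, Stat5a and Stat5b by A_52_P53698, among others.

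Xdh, xanthine dehydrogenase, makes uric acid in purine breakdown and in the mammary gland also takes part in enveloping milk fat droplets. Its probe A_51_P312121 was far above background in EpH4-PR cells, at 283, 284 and 254 in Cy5, or 3.83 to 4.44 times the median negative control. Reference RNA gave 278, 285 and 252 in Cy3. The log2 ratios were -0.71, -0.78 and -0.90 (mean -0.80 ± 0.10, SD, n = 3, 95% interval -0.94 to -0.66, limma adjusted p = 0.000264), below 0 on all 3 arrays, while median centring in place of loess gave 0.04 (adjusted p = 0.489). It was the lowest ratio of the members and stayed short of the log2 ratio of 1 that a call required, which it passed with a normexp offset of 0 (-1.03). The second probe, A_52_P249965, read 110, 101 and 89.3 in Cy5, or 1.37 to 1.56 times the median negative control, with ratios of 0.14, -0.08 and 0.01. After loess the probes of Xdh thus differed by more than the spread between arrays, and only A_51_P312121 passed the 95th percentile of the negative controls in both channels on all 3 arrays.

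Prlr, the prolactin receptor, was measured well above background in EpH4-PR cells on all 3 arrays. Its probe read 319, 287 and 291 in Cy5, or 3.87 to 5.09 times the median negative control, and 216, 211 and 183 in Cy3. After loess, which sets each spot against spots of like brightness on the same array, the log2 ratios were -0.04, -0.12 and -0.12 (mean -0.09 ± 0.05, SD, n = 3, limma adjusted p = 0.141). Median centring, which takes 1 value from all spots of an array, put the ratio at 0.68 (adjusted p = 6.12e-06). Prlr transcript was thus detected in both RNAs, and its comparison with reference RNA depended on the scaling. It passed the test above 0 with median centring, and no setting gave a ratio below 0 that passed.

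Stat5a and Stat5b, the transcription factors that carry the prolactin signal, were also detected on every array. Stat5a read 299, 284 and 283 in Cy5, or 3.84 to 4.95 times the median negative control, against 246, 251 and 221 in Cy3. Its log2 ratios after loess were -0.40, -0.51 and -0.51 (mean -0.47 ± 0.06, SD, n = 3, 95% interval -0.59 to -0.35, limma adjusted p = 0.000961), and median centring gave 0.34 (adjusted p = 0.000308), so the sign turned while both passed the test. Stat5b by A_52_P53698 read 812, 720 and 700 in Cy5, or 9.71 to 12.2 times the median negative control, against 387, 382 and 362 in Cy3. Its ratios after loess were -0.02, -0.15 and -0.23 (mean -0.14 ± 0.11, SD, n = 3, limma adjusted p = 0.103), and the mean was 0.97 with median centring (adjusted p = 2.83e-06).

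The second Stat5b probe, A_51_P281938, gave the one ratio above 0 among the members that passed the test. It read 117, 118 and 92.8 in Cy5 and 128, 123 and 93.3 in Cy3, with ratios of 0.33, 0.39 and 0.34 (mean 0.35 ± 0.03, SD, n = 3, limma adjusted p = 0.00194). The 3 arrays were close together, and this probe kept its sign and passed the test in each of the 12 alternatives, between 0.26 and 1.29. In Cy3 it lay at 1.01 to 1.07 times the median negative control, so its ratio rests on a reference signal at the floor. Both Stat5b probes were well above background in EpH4-PR RNA on all 3 arrays, but their ratios after loess did not overlap.

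Counted together, 0 of the 15 member probes were called higher and 0 lower by limma (an adjusted p under 0.05 together with a log2 ratio of 1 or more, or of -1 or less), where 2.26% of all probes were called higher and 3.83% lower, 6.1% in all. At an unadjusted p under 0.05 with the same limit on the ratio, 0 were called by limma and 0 by the methods' t-test. At an adjusted p under 0.05 alone, 1 member probe lay above 0 and 2 below 0, and 12 did not pass, where 25.7% of all probes lay above 0 and 24.6% below, 50.3% in all. At an unadjusted p under 0.05, 1 member probe lay above 0 and 3 below. At least 50.3% of all probes pass there, since adjustment never lowers a p-value. The median log2 ratio of the member probes was -0.10, beside -0.01 over all probes. In EpH4-PR RNA, 9 of the 15 were well above background on all 3 arrays and 3 on none, and 28375 of all probes, or 68.9%, were so on all 3. Against the 95th percentile of the negative controls, 10 of 15 member probes passed in Cy5 on all 3 arrays, where 66.8% of all probes did. In Cy3, 4 of 15 passed, where 33.2% of all probes did, and these were the bright probes of Xdh, Prlr, Stat5a and Stat5b.

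Differences between the ratios of these 4 probes were chosen after the values were seen and were not tested. A change between loess and median centring moves probes of like brightness nearly alike, and Xdh, Prlr and Stat5a lay at 254 to 319 in Cy5, so an order kept among them is no sign of stability. Prlr lay above Xdh by 0.71 ± 0.06 log2 units (SD, n = 3) after loess and by 0.64 ± 0.08 after median centring, and above Stat5a by 0.38 ± 0.01 and 0.33 ± 0.01. Stat5a lay above Xdh by 0.33 ± 0.06 and 0.30 ± 0.08, and Stat5b by A_52_P53698 lay above Stat5a by 0.34 ± 0.06 and 0.63 ± 0.11. All of these differences were above 0 on each array under loess, median centring, a normexp offset of 0 and the log ratio of the scanner software. Prlr and Stat5b by A_52_P53698, which was brighter, had no settled order, at 0.04 ± 0.06 after loess and -0.29 ± 0.11 after median centring. A ratio to reference RNA depends on the level in both RNAs, so this is no order of transcript levels in EpH4-PR cells.

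**Figure D3:**
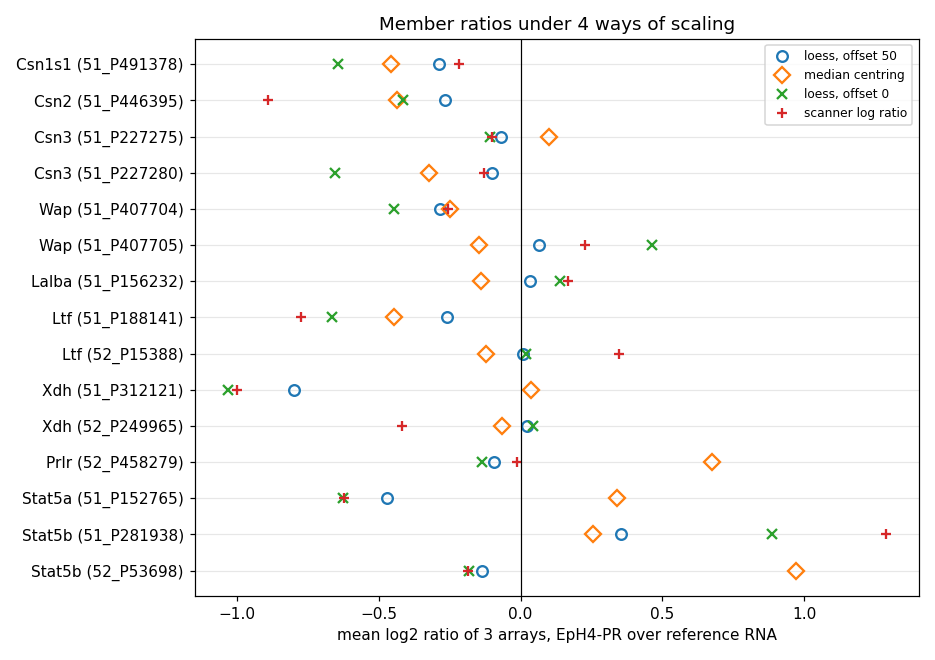
Mean log2 ratio of EpH4-PR RNA over reference RNA (3 arrays) of the 15 member probes under 4 ways of scaling: loess with a normexp offset of 50, median centring, loess with an offset of 0, and the log ratio of the scanner software. The diamonds of median centring lie at 0.68 for Prlr, 0.34 for Stat5a and 0.97 for Stat5b by A_52_P53698, to the right of 0, where the other 3 settings lie to the left; Stat5b by A_51_P281938 lies to the right in all 4.

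The wider prolactin pathway was read from a list of 40 genes, all with a probe, 72 probes in all. Of these, 3 were called higher, 6 lower and 63 neither, where 2.26% of all probes were called higher and 3.83% lower. The median ratio was -0.01, as over all probes. In EpH4-PR RNA, 64 of the 72 were well above background on all 3 arrays, where 68.9% of all probes were. The hormone Prl itself read 91.9, 96.7 and 74.3 in Cy5, above the 95th percentile of the negative controls (85.9, 87.4 and 62.9) and well above background on every array, with a ratio of -0.28 ± 0.19 (SD, n = 3, limma adjusted p = 0.0387). In Cy3 Prl read 146 and 133 on replicates 1 and 2, below the 95th percentile there (162 and 168). On these arrays its ratio rests on a reference signal near the floor. Prl, Jak2, Cish, Socs2 and Elf5 were chosen after their values were seen.

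Jak2, the kinase bound to Prlr, read 347, 322 and 339 in Cy5 with A_51_P483231, at ratios of -0.85, -0.72 and -0.82 after loess (mean -0.79 ± 0.07, SD, n = 3) and 0.13 after median centring. Its second probe read 82.8, 87.1 and 68.8 in Cy5, at a ratio of 0.09 after loess and -0.16 after median centring. In Cy3 that probe lay below the 95th percentile of the negative controls on all 3 arrays. Cish and Socs2 are Stat5 target genes that dampen cytokine signals. Cish read 204, 195 and 177 in Cy5, at ratios of -0.51, -0.56 and -0.74 (mean -0.60 ± 0.12, SD, n = 3) after loess and 0.02 after median centring. The Socs2 probes lay on opposite sides of 0, at 0.23 ± 0.16 by A_51_P107362 and -0.63 ± 0.14 by A_52_P84037 after loess. The first had a limma adjusted p of 0.0486, missed the threshold in 7 of 12 alternatives and moved to 0.79 with median centring. The second was called lower with a normexp offset of 0 (-1.40) and with the scanner log ratio (-1.82), and lay at -0.68 with median centring. In Cy3 the second lay below the 95th percentile of the negative controls on replicates 1 and 2, and the first on replicate 2. None of these Jak2, Cish and Socs2 probes was called after loess. Jak2 by A_51_P483231, Cish and Socs2 by A_52_P84037 missed only the limit on the ratio (limma adjusted p = 0.000183, 0.000975 and 0.00128). Elf5, the luminal transcription factor that works beside Stat5 in alveolar cells, was well above background in EpH4-PR RNA on none of the 3 arrays, at 72.2, 76.8 and 57.9.

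The probes called in the pathway list lay on both sides. Ptpn11, which encodes the phosphatase Shp2, had ratios of 2.06, 2.01 and 1.83 by A_52_P641185 (mean 1.97 ± 0.12, SD, n = 3, limma adjusted p = 3.23e-05). The other Ptpn11 probes, A_52_P211393 and A_51_P173622, were not called, at 0.66 ± 0.04 and 0.64 ± 0.03, with both above 0 on all 3 arrays. Nfib, a transcription factor that binds milk protein gene promoters, had 2 probes called higher, at 1.39 ± 0.02 and 1.12 ± 0.04. The second, A_52_P476973, read 145 in Cy3 on replicates 1 and 2, below the 95th percentile of the negative controls there (162 and 168). The growth hormone receptor Ghr, a relative of Prlr that also acts through Jak2 and Stat5, was called lower by 3 probes, at -2.91 ± 0.08, -1.69 ± 0.14 and -1.20 ± 0.12. Socs3, which blocks Jak kinases, had ratios of -1.90, -1.83 and -1.89 (mean -1.87 ± 0.04, SD, n = 3, limma adjusted p = 2.00e-05). Igf2 and the phosphatase gene Ptpn6 made up the other lower calls, at -1.61 ± 0.12 and -1.65 ± 0.15, each by 1 of 2 probes. The second Igf2 probe lay at -0.96 ± 0.15 and was not called, and the second Ptpn6 probe, measured above background in both RNAs on every array, lay at 0.05 ± 0.07. None of the 9 called probes changed sign under median centring, a normexp offset of 0 or the scanner log ratio. Median centring brought the list to 15 higher and 3 lower calls, where 7031 of all 41174 probes were called higher and 708 lower. Socs3 (-0.59), Ptpn6 (-0.98) and Ghr by A_52_P680941 (-0.93) then fell short of the log2 ratio of 1.

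**Figure D4:**
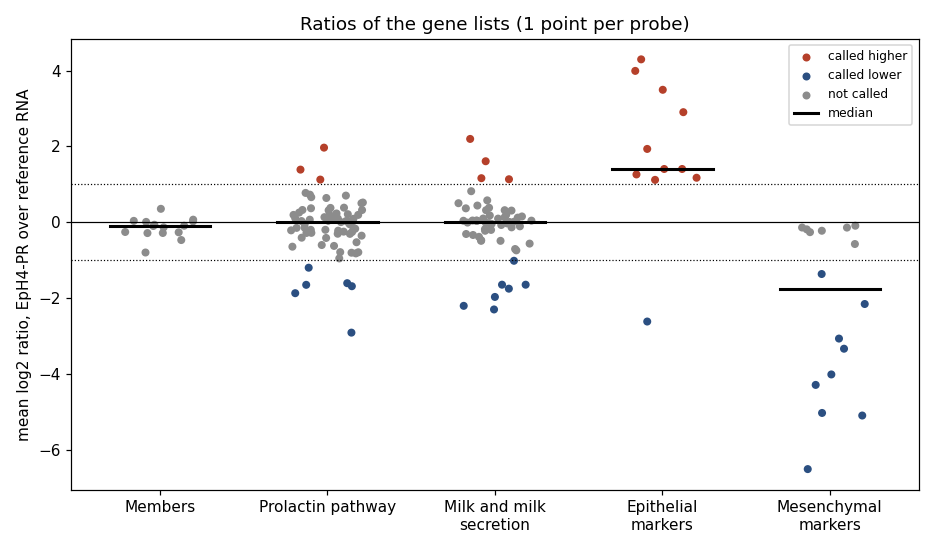
Mean log2 ratio of EpH4-PR RNA over reference RNA after loess, 1 point per probe, for the members (15 probes), the prolactin pathway (72), other genes of milk and milk secretion (55), epithelial markers (11) and mesenchymal markers (16). Red and blue points were called higher and lower, grey points were not, dotted lines mark a log2 ratio of 1 either way and black bars are medians. The member points lie between -0.80 and 0.35 with none called, and of the 11 epithelial marker points 10 were called higher. Under median centring the members still had 0 calls, the pathway had 15 higher and 3 lower, and all 41174 probes had 7031 and 708.

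Other genes of milk and milk secretion were read from a list of 40 genes, 37 of them with a probe, 55 probes in all. Of these, 4 were called higher, 7 lower and 44 neither, with a median ratio of 0.01, where 2.26% of all probes were called higher and 3.83% lower. The higher calls were enzymes of fatty acid synthesis and a droplet coat gene. Fasn, the fatty acid synthase, read 29548, 25850 and 28753 in Cy5, at ratios of 2.23, 2.16 and 2.20 (mean 2.20 ± 0.03, SD, n = 3, limma adjusted p = 1.64e-05), while its second probe lay at 0.58 ± 0.12 and was not called. Plin2, which coats lipid droplets and milk fat globules, lay at 1.61 ± 0.04, the stearoyl-CoA desaturase gene Scd1 at 1.16 ± 0.04, and the ATP citrate lyase gene Acly at 1.13 ± 0.01 by 1 of its 2 probes. All 4 stayed above 0 in each of the 4 scalings.

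Lower calls in this list were transporters, lipid uptake genes and secreted proteins. Slc2a1, the glucose transporter of the basolateral membrane, had ratios of -2.24, -2.33 and -2.33 (mean -2.30 ± 0.05, SD, n = 3), and Spp1, which encodes osteopontin, had -2.21 ± 0.02. The Spp1 probe was bright in both RNAs, at 38751 to 44642 in Cy5 and 53454 to 59660 in Cy3, with no array saturated. Fabp3, the fatty acid binding protein of the lactating gland, lay at -1.97 ± 0.14 and lipoprotein lipase Lpl at -1.65 ± 0.11 by 1 of its 2 probes, the other being at -0.31 ± 0.10. Cd36, a fatty acid receptor, was called lower by 2 probes, at -1.75 ± 0.13 and -1.65 ± 0.15, though they were well above background in EpH4-PR RNA on 1 and 2 of the 3 arrays. Mfge8, a milk fat globule protein, lay at -1.02 ± 0.06 after loess and at 0.46 after median centring, the one probe of the 11 whose sign turned. Slc2a1 (-0.87), Lpl (-0.84) and Spp1 (-0.57) were also no longer called with median centring.

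Some genes of milk components in this list stood near the level of the negative controls. Others did not, such as Cel and Lpo, which were well above background in both RNAs on all 3 arrays. The other casein genes Csn1s2a and Csn1s2b, the milk mucin Glycam1 and the butyrophilin gene Btn1a1, which were chosen after their values were seen, had Cy5 signals of 56.9 to 84.0. Csn1s2a, Glycam1 and Btn1a1 were well above background in EpH4-PR RNA on none of the 3 arrays, and Csn1s2b on 1. Their ratios ranged from -0.08 to 0.15 over all arrays and probes and, with both channels at the floor, carry no order.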

How the data were processed

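The 3 two-colour arrays of EpH4-PR RNA held 43790 spots each, on 3 slides, and were grouped by their labels. The authors deposited the output of Agilent Feature Extraction 8.1.1.1 (per the file headers): for each spot an intensity and a local background intensity in each channel, background flags and the log10 of the Cy5 to Cy3 ratio, without normalization between arrays. A deposited table of the authors' own comparison (fold changes and p-values between 2 unnamed sides) was not used.

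Mean spot intensity was corrected for the local median background with limma 3.58.1 (R 4.3.3; normexp, offset 50) and normalized by loess within each array, with control spots and outlier spots (150, 18 and 3 on replicates 1, 2 and 3) at weight 0 and then left out. Spots of a probe were averaged, and probes of a gene were kept apart. A mean log2 ratio other than 0 was tested by lmFit and eBayes, and p-values were adjusted by Benjamini-Hochberg over all 41174 probes. Well above background is the flag of the scanner software. The tests were run on simulated data first. Current symbols came from RefSeq accessions of GRCm38.p6, which matched 21445 of 23705 probes with an accession, and promoter sequences from RefSeq. Figures were drawn with matplotlib 3.10.9.

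Every member probe was named, with Pgr and, from the pathway and milk secretion lists, the 3 highest and 3 lowest ratios among probes well above background in both channels; other genes of these lists were chosen after their values were seen. Members and lists were chosen with earlier results of these data known. Alternatives were median centring, a normexp offset of 0, the scanner log ratio, median spot intensity, outlier spots kept, a filter on dim probes, an intensity trend, the methods' t-test, each array left out, and negative controls in place of the background flag.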

Additional observations from a re-analysis of the deposited data

How the results depend on the processing

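The number of arrays and the nearness of most member signals to the negative controls limit what these ratios can show. Over all probes, 932 higher and 1578 lower calls became 7031 and 708 with median centring, 3125 and 3905 with a normexp offset of 0, and 3616 and 3887 with the scanner log ratio, so the share of higher calls went from 37.1% to 90.9%, 44.5% and 48.2%. Of the member probes, 1 (Xdh by A_51_P312121) was called lower at offset 0, and 1 (Stat5b by A_51_P281938) higher with the scanner log ratio. Pathway calls went to 15 higher and 3 lower with median centring, 5 higher and 9 lower at offset 0 and 8 higher and 9 lower with the scanner log ratio, and calls of the other milk and secretion genes to 7 higher and 3 lower, 8 and 7, and 7 and 7. Member probes above background in reference RNA fell from 10 to 4 of 15 against the 95th percentile of the negative controls, where all probes fell from 69.3% to 33.2%.

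With each array left out, the members had 0 calls throughout, the pathway 3 higher and 6 to 7 lower, and all probes 933 to 953 higher and 1585 to 1605 lower. Of 176 member values over the alternatives, 149 kept their direction and side of the threshold, and 12 kept direction and newly passed it. The 12 were Ltf A_51_P188141 in 4, Csn3 A_51_P227280 in 3, Csn1s1 in 2, and Csn2, Wap A_51_P407704 and Stat5b A_52_P53698 in 1 each. With median centring, Wap A_51_P407705, Lalba, Prlr and Stat5b A_52_P53698 also newly passed it, but with the sign turned. Including those, 15 values changed sign. With median centring these were Csn3 A_51_P227275 (0.10), Wap A_51_P407705 (-0.14), Lalba (-0.14), Ltf A_52_P15388 (-0.12), Xdh A_51_P312121 (0.0378) and A_52_P249965 (-0.0643), Prlr (0.68), Stat5a (0.34) and Stat5b A_52_P53698 (0.97). The others were Xdh A_52_P249965 with the scanner log ratio (-0.42) and without single arrays (-0.0345 to 0.0737), Csn1s1 with median spot intensity (0.00487), and, without single arrays, Lalba (-0.00576 to 0.0773; below 0 without replicate 1, as Xdh was), Csn2 (-0.43 to 0.0442; above 0 without replicate 2) and Ltf A_52_P15388 (-0.0289 to 0.049995; below 0 without replicate 3). Another 17 named probes gave 204 values, of which 193 kept direction and side and 8 no longer passed the threshold. The remaining 3 changed sign, all with median centring: Jak2 A_52_P309376 (-0.16), Jak2 A_51_P483231 (0.13) and Cish (0.0154). Further named probes were not in this count, and some of them, such as Mfge8, Csn1s2b and Btn1a1, also changed sign with median centring. The cause was not tested. Slide as a block was not run, since each slide holds 1 array. Each ratio already pairs both RNAs on the same array, and no pairing between groups was possible because all arrays belong to 1 group.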
